A study of Mus musculus with 12 samples.

Results

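PRAME family genes were followed in TPS cells and EPS cells. The set was the 10 PRAME-like genes BC080695, Pramef6, Pramef8, Pramef12, Pramef17, Pramef25, Pramel4, Pramel5, Pramel6 and Pramel7, chosen by symbol in the GENCODE M21 annotation, out of 55401 genes in the count files. TPS cells are mouse totipotent potential stem cells, held on feeder cells in the CPEC condition. CPEC is a mix of CD1530 (a RARγ agonist), VPA (an inhibitor of histone deacetylases), EPZ004777 (an inhibitor of DOT1L) and an inhibitor of GSK3. EPS cells are mouse extended pluripotent stem cells, held on feeder cells in LCDM medium. There were 3 lines of each, and every line was sequenced as 2 technical replicates (12 libraries of polyadenylated RNA, with 13676051 to 21821707 counts per library), whose counts were added up to give 1 value per line. The culture medium and the cell type changed together, so their parts in any difference cannot be told apart. Whether the 3 TPS lines came from EPS cells or from 2-cell embryos is not given in the sources used here, nor are their strain, sex and passage, and p-values measure the spread between these lines.

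PRAME proteins are leucine-rich repeat proteins named after a human tumor antigen, and some of them serve as substrate receptors of cullin ubiquitin ligases. The family expanded strongly in the mouse, where most copies lie in tandem clusters and many are known from germ cells, oocytes and the cleavage-stage embryo. Pramel7 and its neighbor Pramel6 are known from the inner cell mass and from naive pluripotency. PRAMEL7 directs the degradation of UHRF1, the factor that brings DNA methyltransferase to newly replicated DNA.

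The members fell into a set found in both cell types and a set found almost only in TPS lines. Pramef8 and Pramef12 were expressed in all 6 lines. The other 8 members together reached 26.2, 61.4 and 59.6 CPM (counts per 1000000 counts of the library, adjusted by TMM factors) in TPS lines 1, 2 and 3. Much of this was BC080695, whose reads are uncertain between close copies, and without it the sums were 14.4, 15.8 and 18.2 CPM. In the 3 EPS lines the 8 genes summed to 0.0326, 0.0294 and 0.0284 CPM, which is 1 count in each line. In 7 of the 10 members every TPS line stood above every EPS line. Of these, 5 passed the filter on low counts described below, among 7 members that passed, and they did so only through the TPS lines. Of all 17468 genes that passed, 23.5% had every TPS line above every EPS line. Because RNA was taken from whole cultures, more cells of a type and more RNA per cell cannot be told apart.

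**Figure D1:**
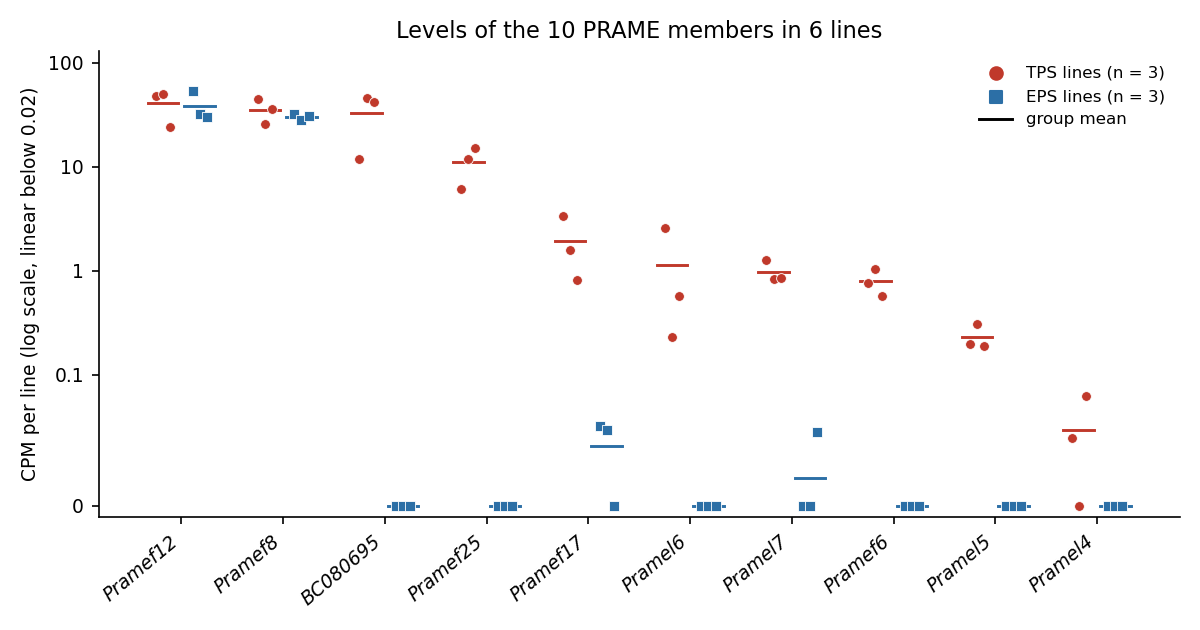
CPM of the 10 PRAME members (x axis, ordered by TPS mean) in 3 TPS lines (red circles) and 3 EPS lines (blue squares); the y axis is logarithmic above 0.02 CPM and linear below, and horizontal bars are group means. Pramef12 and Pramef8 overlap between the groups, while the other members lie at or near 0 in EPS lines.

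Of the 10 members, 7 passed the filter on low counts and were tested by edgeR's quasi-likelihood test with Benjamini-Hochberg adjustment over all 17468 tested genes. By this test 5 were called higher in TPS lines (BC080695, Pramef25, Pramef17, Pramel7 and Pramef6), where 14.4% of all tested genes were called higher. The same test called 0 members lower, where 7.34% of all tested genes were lower. No tested member was lower at an unadjusted p under 0.05 either, and DESeq2 and limma-voom also called 5 higher and 0 lower. The 5 called members had fewer than 10 counts in every EPS line, so they passed the filter only through the TPS lines and had to differ. Their count is therefore a description of these lines. Pramel6, Pramel5 and Pramel4 did not pass the filter and have no adjusted p of their own in that fit.

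BC080695 was the most abundant of the members restricted to TPS lines. The annotation places it at chr4:143551700-143573798 on the plus strand of GRCm38, as a protein-coding gene. Its counts were 202 and 271 in the technical replicates of TPS line 1, 863 and 897 in those of line 2, and 697 and 607 in those of line 3. All 6 EPS libraries had 0 counts. On the CPM scale the TPS lines stood at 11.8, 45.6 and 41.4, so that line 1 was low and lines 2 and 3 were close together. Against a floor of 3 counts per EPS line, which is 0.0979 CPM in the EPS line where they weigh most, the TPS mean of 32.9 ± 18.4 CPM (SD, n = 3 lines) was at least 336-fold higher (edgeR adjusted p = 0.00283). Such floors and the intervals given for ratios allow for counting error alone. They leave out the spread between lines and between technical replicates, and reads were not tagged by molecule.

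Pramef25 (chr4:143948580-143951016, minus strand) is closely related to BC080695, with 94.4% identity between their coding sequences. Its CPM was 6.11, 11.8 and 15.1 in TPS lines 1, 2 and 3, and its count was 0 in every EPS library. As for BC080695, TPS line 1 was the lowest. The TPS mean of 11.0 ± 4.54 CPM (SD, n = 3 lines) was at least 112-fold above the EPS floor (edgeR adjusted p = 0.00214). Pramef6 (chr4:143894237-143900380, minus strand) showed the same split at a much lower level, with 0.773, 1.04 and 0.571 CPM in TPS lines and 0 counts in all EPS libraries. This was at least 8.11-fold higher (edgeR adjusted p = 0.00539).

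Pramel7 and Pramef17 had a few EPS reads. Pramel7 (chr2:87489087-87497093, minus strand), the member known from naive pluripotency, had 1.27, 0.828 and 0.857 CPM in the TPS lines. Among the EPS libraries it had 1 count in a replicate of line 3 and 0 counts in the other 5. The ratio of its pooled rates was 99.6 (95% exact interval from counting, 17.5 to 3970; edgeR adjusted p = 0.00337). That ratio rests on the 1 EPS count: without EPS line 2 it was 65.7, and without EPS line 3 only a bound of at least 10.1-fold remained. Its 3 TPS lines lay close together and clear of all EPS lines.

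Pramef17 (chr4:143991119-143994369, minus strand) is the member whose coding sequence is nearest to that of Pramel7, with 79.9% identity. Its CPM was 3.39, 1.60 and 0.825 in TPS lines 1, 2 and 3, and 2 counts were found in EPS cells, 1 in line 1 and 1 in line 2. Here TPS line 1 was the highest. The ratio of pooled rates was 101 (95% exact interval from counting, 27.8 to 843; edgeR adjusted p = 0.00456), and it was 62.6 without TPS line 1 and 65.7 without EPS line 3.

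Pramel6 (chr2:87506565-87510872, plus strand) was found mainly in 1 TPS line. Its counts were 38 and 66 in the replicates of TPS line 1, 5 and 4 in those of line 2, 9 and 9 in those of line 3, and 0 in all EPS libraries. On the CPM scale this was 2.59, 0.233 and 0.571, with line 1 far above the others. The TPS mean was at least 11.6-fold above the EPS floor, and at least 4.11-fold without TPS line 1. Without a filter on low counts edgeR gave Pramel6 an adjusted p of 0.000264. It entered the test with the usual filter when TPS line 2 or an EPS line was left out, with an edgeR adjusted p of 0.0209 without TPS line 2 and of 0.052 to 0.0625 without each EPS line.

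Pramel5 and Pramel4 were near the limit of detection. Pramel5 (chr4:144270633-144280488, minus strand) had 8, 12 and 6 counts in the TPS lines and 0 in all EPS lines, a difference of at least 2.39-fold. Without a filter its edgeR adjusted p was 0.00916. Pramel4 (chr4:144059126-144069327, plus strand) had 1, 0 and 2 counts in the TPS lines and 0 in EPS lines, so no difference was detectable at this depth (edgeR adjusted p = 0.411 without a filter).

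Pramef12 and Pramef8 were at similar levels in both cell types. Pramef12 (chr4:144391674-144408464, minus strand), a gene known from the male germ line, had 47.4, 50 and 24.1 CPM in TPS lines and 53.4, 32.0 and 30.2 CPM in EPS lines. The groups overlapped, with TPS line 3 the lowest of all and EPS line 1 the highest. Its log2 fold change was 0.07 (95% interval -0.69 to 0.83; edgeR adjusted p = 0.895). Pramef8 (chr4:143412426-143421091, plus strand) had 44.5, 25.8 and 35.7 CPM in TPS lines and 31.8, 27.9 and 30.8 CPM in EPS lines. The EPS values lay within the TPS range. Its log2 fold change was 0.23 (95% interval -0.26 to 0.72; edgeR adjusted p = 0.474). Neither interval excludes a small difference, and a fold above 1.78 for Pramef12 or above 1.65 for Pramef8 lies outside it.

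Levels of different genes can be set beside each other only per length of exon. In TPS lines the means per kilobase were 15.7 ± 5.54 CPM for Pramef12, 15.4 ± 8.60 for BC080695, 8.46 ± 2.23 for Pramef8 and 6.53 ± 2.69 for Pramef25 (SD, n = 3 lines). The line ranges of neighbors in this order overlap, so their order is not settled beyond the spread of the lines. A second tier followed with 1.11 ± 0.751 CPM per kilobase for Pramef17, 0.544 ± 0.613 for Pramel6, 0.462 ± 0.116 for Pramel7 and 0.380 ± 0.111 for Pramef6, whose neighbors overlap in the same way. The lowest line of Pramef25, at 3.63 CPM per kilobase, stood above the highest line of Pramef17, at 1.94. Pramel5 came last but for Pramel4, at 0.102 CPM per kilobase. In EPS lines the order was Pramef12 with 15 ± 5.03 and Pramef8 with 7.23 ± 0.484 CPM per kilobase, without overlap, and then Pramef17 and Pramel7 at 0.0118 and 0.00444.

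Promoter windows were at hand for 9 of the 10 members, from 250 bases before to 50 bases after the RefSeq start site in the build GRCm38.p6. They are shown for BC080695 (chr4:143567217-143567516, plus strand), the highest of the members absent from EPS lines, and for Pramef12 (chr4:144408415-144408714, minus strand), which was found in both cell types. Each is written from 5′ to 3′ on the strand of its gene and the start site follows the first 250 bases. For BC080695, and for Pramel7 shown further below, the window lies inside the annotated span of the counted gene, away from its annotated start. Capitals mark matches to the searched motifs.
BC080695: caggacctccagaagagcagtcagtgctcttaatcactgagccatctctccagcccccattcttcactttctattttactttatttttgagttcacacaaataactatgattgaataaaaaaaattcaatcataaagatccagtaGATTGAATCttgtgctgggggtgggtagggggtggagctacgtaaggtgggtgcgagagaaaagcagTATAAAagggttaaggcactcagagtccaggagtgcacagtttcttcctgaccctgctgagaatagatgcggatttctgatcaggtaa
Pramef12: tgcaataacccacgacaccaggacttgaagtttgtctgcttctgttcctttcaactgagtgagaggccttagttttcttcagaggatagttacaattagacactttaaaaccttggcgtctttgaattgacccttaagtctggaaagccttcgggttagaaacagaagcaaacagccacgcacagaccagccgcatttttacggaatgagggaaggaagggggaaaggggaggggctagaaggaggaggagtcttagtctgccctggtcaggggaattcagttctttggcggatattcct
Searched on both strands were TATAAA (a core promoter element), AGGTCA (a core site of retinoic acid and other nuclear receptors), GATTNAATC (the core bound by DUX, a homeodomain factor of the 2-cell embryo) and GGATTA (a homeodomain core). GATTNAATC is its own reverse complement, so a match counts once for both strands. The BC080695 window held GATTNAATC at base 146 and TATAAA at base 213, and the Pramef12 window held none of the 4 motifs.

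GATTNAATC was found in 0.268% of all 32851 promoter windows in the table, TATAAA in 13.6%, AGGTCA in 16.3% and GGATTA in 7.06%. Among the 9 members, GATTNAATC was found in BC080695 only, TATAAA in BC080695 only, AGGTCA in Pramef6 only, and GGATTA in Pramef6, Pramel4 and Pramel5. The family table held 41 windows of members and related PRAME genes, of which 19 belonged to genes called higher in TPS lines, 21 to genes not tested and 1 to a gene not called. GATTNAATC was found in 6 of the 19 and 0 of the 21 (BC080695, Gm13040, Gm13043, Gm13057, Gm13119 and B020004J07Rik). TATAAA was found in 8 of the 19 and 6 of the 21, GGATTA in 2 and 4, and AGGTCA in 1 and 2. Of the 6 windows with GATTNAATC, 5 are not separate cases. The windows of Gm13040 and Gm13057 were identical to that of BC080695, and those of Gm13043 and Gm13119 were 75.7% and 75.6% identical to it. The window of B020004J07Rik, a gene outside the cluster described below, was 48.7% identical to it. A match describes letters in a window and is not a measured binding site.

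The windows of Pramef17 (chr4:143994320-143994619, minus strand) and Pramel7 (chr2:87492369-87492668, minus strand) are shown because they are alike although the genes lie on different chromosomes. The window of Pramel6 (chr2:87506315-87506614, plus strand), the neighbor of Pramel7, and that of Pramef25 (chr4:143950967-143951266, minus strand), the relative of BC080695, are shown beside them. None of these 4 windows held any of the 4 motifs, so they carry no capitals.
Pramef17: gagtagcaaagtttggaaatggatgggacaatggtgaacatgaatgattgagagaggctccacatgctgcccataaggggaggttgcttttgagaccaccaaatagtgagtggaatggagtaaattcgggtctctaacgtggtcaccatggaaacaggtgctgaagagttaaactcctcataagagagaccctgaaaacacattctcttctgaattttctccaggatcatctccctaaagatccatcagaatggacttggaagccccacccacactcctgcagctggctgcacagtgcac
Pramel7: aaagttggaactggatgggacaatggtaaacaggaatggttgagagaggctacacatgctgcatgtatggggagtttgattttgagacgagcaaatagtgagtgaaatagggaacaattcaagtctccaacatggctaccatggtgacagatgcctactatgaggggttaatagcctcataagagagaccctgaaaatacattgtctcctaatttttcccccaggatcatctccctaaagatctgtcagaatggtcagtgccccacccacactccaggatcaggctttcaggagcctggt
Pramel6: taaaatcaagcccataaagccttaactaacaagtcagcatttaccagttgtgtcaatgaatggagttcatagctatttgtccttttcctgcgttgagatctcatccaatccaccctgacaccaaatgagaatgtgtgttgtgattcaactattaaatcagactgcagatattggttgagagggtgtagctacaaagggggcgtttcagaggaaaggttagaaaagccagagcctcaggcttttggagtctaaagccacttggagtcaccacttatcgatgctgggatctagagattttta
Pramef25: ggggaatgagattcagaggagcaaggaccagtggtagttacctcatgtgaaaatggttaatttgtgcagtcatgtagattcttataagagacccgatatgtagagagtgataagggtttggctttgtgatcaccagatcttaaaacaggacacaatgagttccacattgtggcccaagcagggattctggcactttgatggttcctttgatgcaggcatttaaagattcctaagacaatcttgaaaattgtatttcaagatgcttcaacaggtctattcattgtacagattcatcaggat
The windows of Pramef17 and Pramel7 were 75.2% identical over a global alignment. The only member pair above them was Pramel4 and Pramel5, with 83.4%. Across the 9 members the windows held 40.3% to 48.7% G and C and 0 to 7 CpG sites, where the median of all windows was 52.7% and 7 CpG sites.

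The members were also read in the order of their genes. All members but Pramel6 and Pramel7 lie in 1 cluster of 1.01 Mb, chr4:143394428-144408464, which runs from Pramel1 to Pramef12 and holds 47 annotated genes, 28 of them PRAME genes. Of these 28, 12 were called higher in TPS lines, 2 were tested and not called (Pramef8 and Pramef12), 7 had up to 26 counts and were not tested, and 7 had no count in any library. All of the 12 but Pramel1 passed the filter only through TPS lines, with under 10 counts in every EPS line, so the filter fixed their direction and nothing is read from the count beside the 14.4% of all tested genes. The genes with no count included Oog2 and Oog3, oogenesins known from oocytes. The PRAME genes found in EPS lines lay near the ends of the cluster: Pramel1 and Pramef8 come first, and Pramef12 comes last. Between them the PRAME genes were at 0 in EPS lines or had at most 8 counts over the 3 EPS lines. Among the 19 other annotated genes in the cluster, only 1 was tested, the processed pseudogene Gm13123 between Pramel4 and Pramel5. It was found in both cell types, with means of 2.84 CPM in TPS lines and 3.82 CPM in EPS lines, and was not called. The unprocessed pseudogene Gm13106, which was not tested, had 6, 19 and 14 counts in the TPS lines and 0 in each EPS line.

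**Figure D2:**
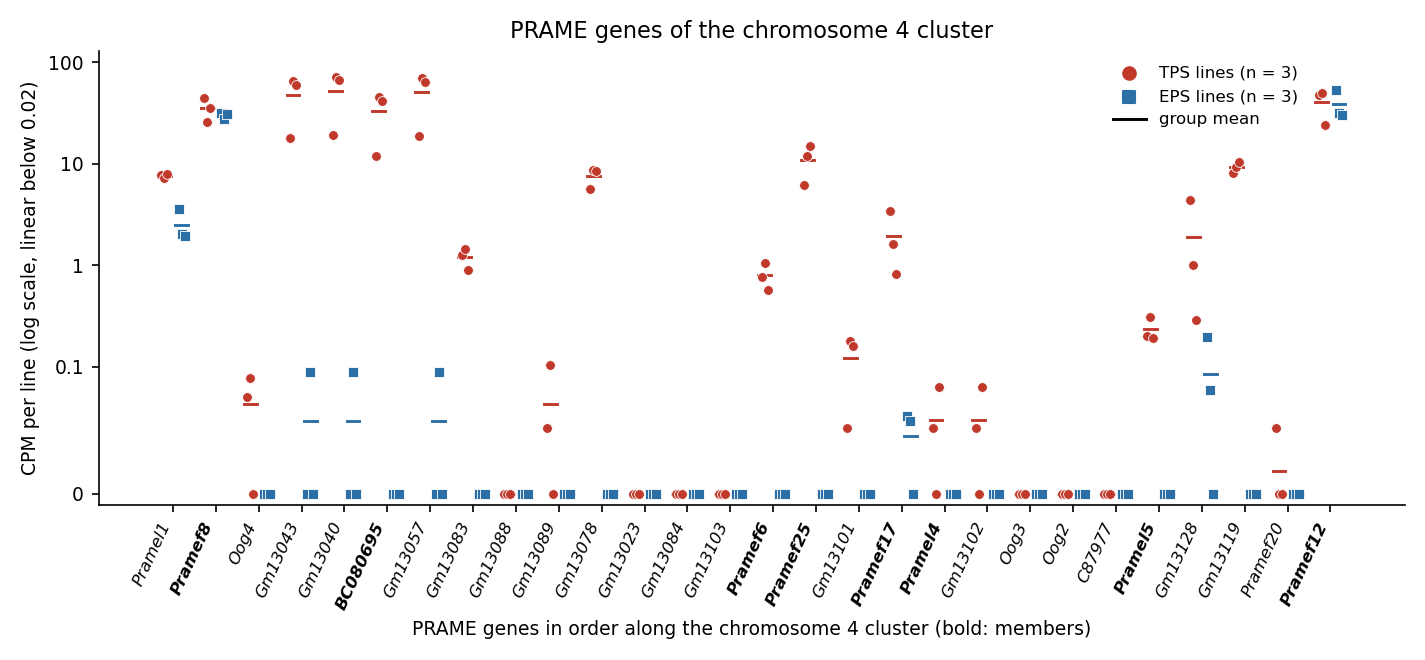
CPM in 3 TPS lines (red circles) and 3 EPS lines (blue squares) of the 28 PRAME genes of the chromosome 4 cluster, placed in gene order on the x axis and not to scale, with the 8 members in bold; the y axis is logarithmic above 0.02 CPM and linear below, and bars are group means. EPS lines rise above 1 CPM only at Pramel1, Pramef8 and Pramef12, near the ends, while TPS lines also show genes between them.

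Other PRAME genes were sought by symbol and synonym, which gave 41 genes with a translated match to a member. This list is not complete, since 34 annotated genes outside it, 23 of them protein-coding, share a near-identical transcript with a member or a listed gene. Of the 41 listed genes, 19 were tested by edgeR, and 19 were called higher in TPS lines and 0 lower (14.4% and 7.34% of all tested genes), with 0 called lower by DESeq2 and by limma-voom. In EPS lines 32 of the 41 had no count, 9 of them with no count in TPS lines either. All 19 but Pramel1 passed the filter with under 10 counts in every EPS line, so they too had to differ. Their median log2 fold change was 8.93, or 6.56 with genes absent from EPS lines set to their lower bound. The filter fixed its direction, so nothing is read from it. Together these 41 genes summed to 157, 284 and 280 CPM in the TPS lines and to 3.82, 2.41 and 2.10 CPM in the EPS lines, where most of it was Pramel1 (3.56, 2.03 and 1.96 CPM). In TPS lines 2 and 3 most of the sum came from Gm13040, Gm13057 and Gm13043, near-identical copies of BC080695 on which the same reads may be counted more than once. These 3 genes summed to 55.8, 208 and 191 CPM in TPS lines 1, 2 and 3. The other 38 genes summed to 101, 76 and 88.9 CPM. Line 1 was thus the lowest in the first sum and the highest in the second. Its place in the second sum rests on Pramel3, which had 23.4, 1.35 and 1.11 CPM in these lines.

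By mean CPM over the TPS lines, also per kilobase of exon, the first 3 of them were Gm13040, Gm13057 and Gm13043, close copies of BC080695. In TPS line 1 alone Pramel3 had a higher CPM than these 3, and Gm12794 a higher CPM per kilobase. Gm13040 had 19.2, 71.8 and 66.5 CPM in the TPS lines and 3 counts in EPS cells, all in 1 library of line 2. Its ratio of pooled rates was 1700 (95% exact interval from counting, 582 to 8260, with an edgeR adjusted p = 0.00122). It was 1100 without EPS line 3, and only a bound of at least 536-fold remained without EPS line 2. Pramel1, known from the testis, was the relative found in both cell types, with 7.66, 7.27 and 7.94 CPM in TPS lines and 3.56, 2.03 and 1.96 in EPS lines. Its log2 fold change was 1.60 (SE 0.322; edgeR adjusted p = 0.0138), and the groups did not overlap. Gm12794 (chr4:101940407-101943183, outside the cluster), A430089I19Rik (chromosome 5), Gm13119 and Gm13078 had no count in EPS lines, and their TPS means were 13.7, 13.7, 9.26 and 7.63 CPM. BC061212 (chromosome 5) had a TPS mean of 6.62 CPM and 1 count in EPS cells. Its transcript is 100% identical to that of Gm7978, which had the same count in 11 of 12 libraries, so both may hold the same reads, and both are in the sum of 38 genes.

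Among the X-linked relatives, Pramel3 and Prame were highest in TPS line 1, and Pramel had 1 count in all. Pramel3 had 23.4, 1.35 and 1.11 CPM in TPS lines 1, 2 and 3, and 0.0326, 0 and 0.142 in EPS lines. Its edgeR adjusted p was 0.0219, so it was not called at a threshold of 0.01. The call was lost with limma-voom (adjusted p = 0.066), without EPS line 1 (0.0748 by edgeR) and without EPS line 2 (0.072 by edgeR), and DESeq2 gave it no adjusted p. Prame itself, the gene that names the family and the most abundant relative that was not called, had 56, 12 and 8 counts in the TPS lines and 0 in EPS lines. It did not pass the filter. Its edgeR adjusted p was 0.000678 with no filter, 0.0367 without TPS line 3 and 0.0472 without EPS line 3, but 0.0529 without EPS line 1 and 0.0565 without EPS line 2. Line 1 was also far the highest TPS line for Gm13128 of chromosome 4, with 4.44, 1.01 and 0.286 CPM.

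Several members share near-identical transcripts with other genes, defined as at least 95% identity over at least 50% of the longest transcript. BC080695 had 6 such genes, with 98.0% identity to Gm13040 and 96.76% to Pramef25, and its annotated span also overlaps Gm13057 on the same strand. Over the 6 TPS libraries the ratio of BC080695 to Gm13040 counts stayed between 0.575 and 0.671. The ratio of Gm13040 to Gm13057 counts, which have 100% identity, stayed between 1.02 and 1.05. BC080695 relative to Pramef25 ranged from 1.87 to 4.05, and relative to Gm13119, with 95.99% identity, from 1.41 to 4.96. So BC080695 moved with Gm13040, Gm13057 and Gm13043, and less closely with Gm13119 and Pramef25.

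**Figure D3:**
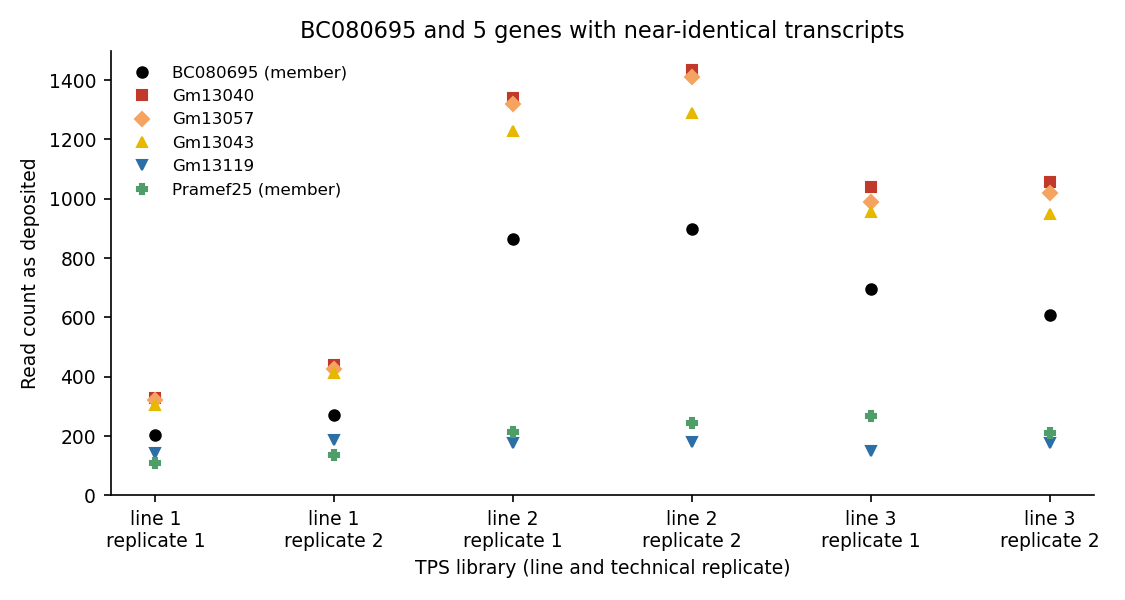
Deposited read counts (y axis, from 0) of BC080695 and 5 genes with near-identical transcripts in the 6 TPS libraries (x axis), with 1 marker per gene. BC080695, Gm13040, Gm13057 and Gm13043 are low in both libraries of line 1 and higher in lines 2 and 3, whereas Gm13119 stays between 143 and 185 counts.

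For other members the copies carry a like uncertainty. Pramel4 and Gm13102, with 99.91% identity, had the same count in all 12 libraries, so the same reads may have been counted on both. This rests on few reads: 1 count in a library of TPS line 1, 2 in a library of line 3, and 0 elsewhere. Pramef17 and Gm13128 shared 99.31% identity, yet their ratio ranged from 0.661 to 5 in TPS libraries. Pramef6 and Gm13083 shared 96.19%. The sources used here do not give how reads that fit several genes were counted, so levels of these members are uncertain between the copies. Pramef8, Pramef12, Pramel6 and Pramel7 had no near-identical gene. With near-identical genes counted once, a choice made after the data were seen, the members called higher numbered 4.

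The spread of the members among the lines of a cell type was set against the technical replicates. An edgeR quasi-likelihood test over the 3 lines, with the technical replicates as its error, called 6 of 8 tested members (Pramel6, Pramef12, Pramef8, BC080695, Pramef17 and Pramef25), where 53.3% of all tested genes were called. So large a share of all genes was called that the count says nothing particular to the members. Among EPS lines Pramef8 and Pramef12 were the only members with enough counts to vary, since the other 6 had 0 to 2 counts over all EPS lines. Of the pair, Pramef12 was called and Pramef8 was not (58.0% of all tested genes were called). Pramel6 spanned 11.1-fold from its lowest to its highest TPS line (edgeR adjusted p = 0.000132), Pramef17 4.11-fold (0.00147 by the same test) and BC080695 3.86-fold (1.35e-08 by the same test). Pramel7 and Pramef6 spanned 1.53-fold and 1.82-fold and were not called (edgeR adjusted p = 0.421 and 0.427). Replicate libraries differed beyond counting noise in every line (chi-square per degree of freedom from 2.68 to 24.3), and this test says nothing about lines grown anew.

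The lines did not rank the members alike. TPS line 1 was the highest line for Pramel6, Pramef17, Pramel7 and Pramef8, and the lowest for BC080695 and Pramef25. Relative to the TPS mean, line 1 stood at 2.29 for Pramel6 and 1.75 for Pramef17, but at 0.358 for BC080695 and 0.556 for Pramef25. TPS line 2 was the highest for BC080695, Pramef12, Pramef6 and Pramel5, and line 3 for Pramef25.

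**Figure D4:**
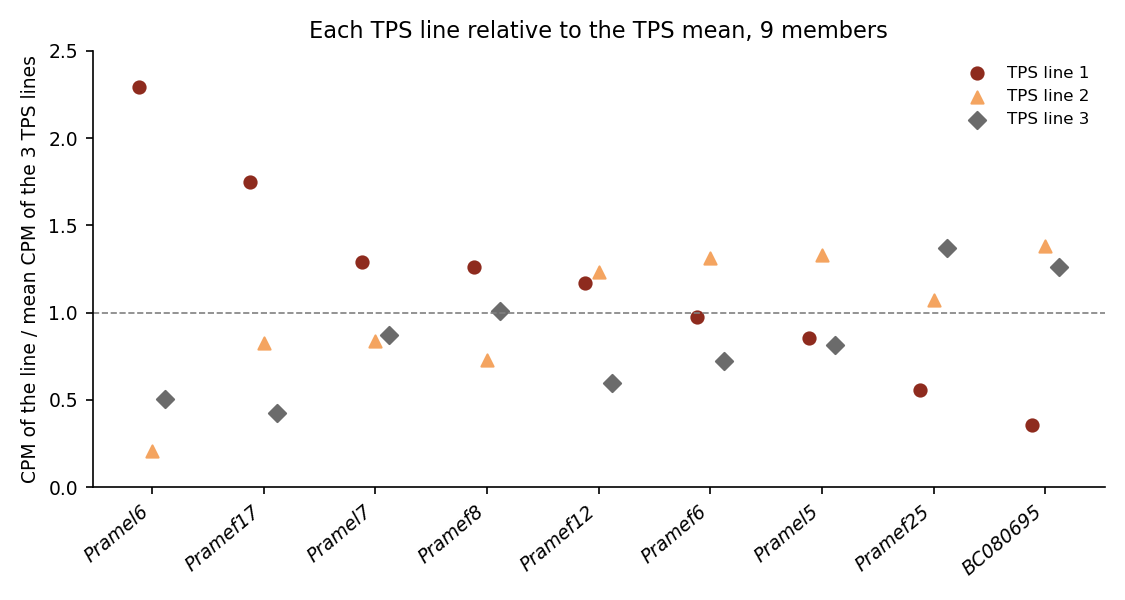
CPM of each TPS line divided by the mean of the 3 TPS lines (y axis) for the 9 members with at least 10 counts in TPS lines (x axis), with 1 marker per line and a dashed line at 1. Line 1 runs from 2.29 at Pramel6 to 0.358 at BC080695.

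The genes with the pattern most like that of a member were sought by Pearson's r of log2(CPM + 1) over 12 libraries, which share their lines and cell types. For BC080695 these were the processed pseudogene AC127331.7 (r = 0.9996), Gm13043 (0.9992) and Gm13057 (0.9992), the latter pair being its copies. For Pramel6 they were Csf3 (r = 0.9929), a growth factor of granulocytes, and Fcgr3 (0.990) and Cd300lf (0.9885), receptors of myeloid cells. Fcgr3 had 84.4, 11.2 and 16.6 CPM in TPS lines 1, 2 and 3, so that it was also far higher in line 1. For Pramel7 they were Gm7792 (r = 0.9951), which has 99.6% identity to the PRAME gene Gm3139 and is not in the list of other PRAME genes, Ltbp1 (0.9886), a protein that binds latent TGF-β, and Rcsd1 (0.9883).

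Marker genes of the cells that the cultures could hold were measured beside the members. The 8 pluripotency genes, Pou5f1 and Nanog among them, were found in all lines. Of the 8, 5 were called lower in TPS lines (7.34% of all tested genes), namely Pou5f1, Esrrb, Klf4, Tdgf1 and Dppa5a. Nanog, Sox2 and Zfp42 were not called. Of the 2-cell-stage genes, 7 of 7 were called higher (14.4% of all tested genes). Each had 0 to 3 counts over the EPS lines, so they passed the filter only through TPS lines and had to differ. They summed to 171 to 219 CPM in TPS lines and 0.0588 to 0.0979 CPM in EPS lines, where Zfp352, Tcstv3 and Gm8300 were at 0. Fibroblast genes, which feeder cells express, were called higher for 11 of 16 (14.4% of all tested genes). They summed to 5500 to 9950 CPM in TPS lines, with the highest in line 1, and to 2540 to 4460 CPM in EPS lines. Fibroblast transcripts were thus found in both cell types, at lower sums in EPS lines. The oocyte genes summed to 8.78 to 11.2 CPM in TPS lines and 4.11 to 11.1 in EPS lines, nearly all of it Zp3. Zp3 was the only one tested and was not called. Of the others, Nlrp5 had 39 counts in TPS lines and 0 in EPS lines, Zp2 33 and 3, and Gdf9 31 and 12. Figla had 10 and 7, Bmp15 4 and 1, Zar1 4 and 0, and Oosp1 was at 0 in all libraries. Any part of fibroblast or myeloid RNA in the levels of Pramel6 or of other members was not tested.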

How the data were processed

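Polyadenylated RNA of 12 libraries was sequenced. The authors trimmed reads with fastp 0.19.7, mapped them to GRCm38.p6 with STAR 2.7.3a and deposited counts per gene, without normalization. The counter, its annotation, the use of strand and the handling of reads that fit several genes are not given in the sources used here. Libraries were grouped by the submitters' labels, and the 2 technical replicates were added up line by line, giving 29877215 to 38466294 counts per line. Of 55401 gene identifiers, 55141 matched GENCODE M21 without the version. The 3 TPS and 3 EPS lines were compared by the quasi-likelihood test of edgeR 4.0.16 (R 4.3.3) with TMM factors and filterByExpr (about 10 counts in enough lines, 15 in total), and p-values were adjusted by Benjamini-Hochberg over all genes tested, with a threshold of 0.05. The test was checked on simulated counts. Intervals of fold changes are 95%. With 3 lines against 3, no 2-sided permutation test can give a p under 0.1.

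Alternatives were DESeq2 1.42.0, limma-voom (limma 3.58.1), other scaling factors, other filters, the 12 libraries as samples, either technical replicate by itself, a block for line number, a threshold of 0.01 and leaving out each line. Near-identical transcripts were found with blastn 2.17.0. Promoter windows come from RefSeq (GRCm38.p6), matched by gene ID, and their identity is over a global alignment. All 10 members were named. Of the other PRAME genes, at most 10 called genes of the highest mean were named, with the most abundant one not called, and for BC080695, Pramel6 and Pramel7 the 3 genes of the highest correlation. Further PRAME genes are named as near-identical copies of members. B020004J07Rik is named for its promoter motif and Gm13128 also for its TPS levels. Gm7978 is named as a copy of BC061212 and Gm3139 as a relative of Gm7792. Pramel, Oog2, Oog3 and the cluster's Gm13123 and Gm13106 are named for their counts. All of these were named after their values were seen. Other PRAME genes were taken by symbol and synonym (43), and 2 without a translated match to a member were left out. Members and lists were chosen with earlier results of these data known.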

Additional observations from a re-analysis of the deposited data

How the results depend on the processing

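The 7 tested members kept their call and, apart from Pramef12, their direction under each alternative that tested them. Pramef12, which was not called, ranged from -0.11 to 0.35 in log2 fold change and Pramef8 from 0.03 to 0.40. Members called higher numbered 5, but 2 (BC080695 and Pramef25) with at least 1 CPM in 3 lines, where fewer genes were tested, and 7 with no filter on low counts, which let in Pramel6 and Pramel5. They numbered 4 with the 12 libraries as samples and 4 with technical replicate 1 of each line alone, where Pramef6 did not pass the filter, and 4 with near-identical genes counted once. Leaving out each line gave 5 to 6. Of all genes, 2068 of 14648 tested were called higher with at least 1 CPM in 3 lines, and 3290 of 32608 without a filter. The other PRAME genes called higher numbered 19, and 12 when near-identical genes were counted once, a choice made after the data were seen. Of all tested genes, 2509 were called higher and 1282 lower. These became 4067 and 3610 with 12 libraries as samples, and 873 and 258 at an adjusted p under 0.01. With library size alone they became 2987 and 745, the median log2 fold change moved to 0.14, and 80.0% of calls were higher, against 66.2%. Leaving out each line gave 1617 to 2234 higher and 493 to 1047 lower. Deviations of TPS and EPS lines of the same number correlated weakly (r = 0.024, -0.116 and 0.0423). Those of lines of different number ran from -0.244 to 0.231. With 3 lines of each type these values cannot decide whether same-numbered lines are related, and the sources used here do not give it. With the line number as a replicate block 1714 genes were higher and 721 lower, with 5 members and 18 other PRAME genes higher. Depth limits what can be said of Pramel4 and Pramel5, and of the folds of genes with 0 EPS counts, which are bounds. The counts among lines (6 members in TPS lines, 1 in EPS lines) did not change under DESeq2, another filter or library size alone.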
